A study of Mus musculus with 2 samples.

Results

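The regions described here are the boundaries of mouse chromosome 7, that is, every entry of the deposited boundary list that lies on that chromosome. The chromosome was chosen by measured values, its coding genes per Mb and its boundaries per Mb. The boundaries of chromosome 7 number 418 of the 7610 boundaries of the list, which covers 20 chromosomes. In situ Hi-C, which joins and counts DNA segments that touch inside fixed nuclei, was run on mature olfactory sensory neurons, the odour-sensing nerve cells of the nose. Ldb1 encodes an adaptor through which enhancer-bound transcription factors pair. The neurons carried a conditional Ldb1 knockout brought about by OMP-Cre, a recombinase under the promoter of the olfactory marker protein gene, so Ldb1 is deleted late, in neurons that have already matured. The cells were isolated by flow sorting, and the mice were adults, mixed in sex, of a strain the labels do not specify, with olfactory epithelium as the tissue. There was 1 group of 2 biological replicates, each of 1000000 cells fixed in 1% formaldehyde and cut with DpnII, and a control genotype was not analysed here. The authors called 1 list on the contacts of both replicates together, so no value below has a replicate error, and knockout cannot be compared with control. A boundary list measures no RNA, so neither the loss of Ldb1 nor the identity of the sorted cells could be checked with it.

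A boundary is a position that few chromatin contacts cross, and it separates neighbourhoods within which genes and enhancers meet more often. Many mammalian boundaries form where cohesin, a ring that extrudes DNA loops, is halted by the DNA-binding protein CTCF bound in one orientation, and others lie at active promoters. Chromosome 7 of the mouse carries large tandem families of genes, among them odorant receptors (Olfr), the vomeronasal receptors of pheromone-sensing neurons (Vmn1r and Vmn2r), zinc finger factors (Zfp), kallikreins (Klk) and secretoglobins (Scgb), as well as several imprinted domains. In an olfactory neuron 1 odorant receptor gene is expressed and the others are silent.

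The sequences shown first are CTCF consensus matches that lie inside boundary bins, because strong boundaries of chromosome 7 had such a match nearby more often than weak ones, as counted further on. The CTCF core consensus of 12 bases was searched on both strands, and 30 of the 418 boundary bins (7.18%) held at least 1 match, against 2.75% of all 5 kb bins of the chromosome. Their 32 matches lay on the forward strand 15 times and on the reverse strand 17 times. The 8 strongest of these bins are shown with the gene whose start site is nearest, as 60 bases of the forward strand of GRCm38 with the match in capitals.
Fadd, chr7:144583800-144583859, match on the reverse strand: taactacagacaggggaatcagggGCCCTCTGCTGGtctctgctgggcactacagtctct
Zfp536, chr7:37360321-37360380, match on the reverse strand: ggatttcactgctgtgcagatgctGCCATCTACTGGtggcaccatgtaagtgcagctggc
Fam169b, chr7:68374168-68374227, match on the forward strand: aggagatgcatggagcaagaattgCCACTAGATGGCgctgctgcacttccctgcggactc
Zkscan2, chr7:123505210-123505269, match on the reverse strand: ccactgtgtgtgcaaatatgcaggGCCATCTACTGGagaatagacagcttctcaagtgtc
Zkscan2, chr7:123508083-123508142, match on the forward strand: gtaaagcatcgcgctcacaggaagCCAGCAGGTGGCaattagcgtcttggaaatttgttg
Slc17a6, chr7:51614562-51614621, match on the forward strand: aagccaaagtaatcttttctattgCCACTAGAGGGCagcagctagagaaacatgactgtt
Slc22a18, chr7:143466474-143466533, match on the reverse strand: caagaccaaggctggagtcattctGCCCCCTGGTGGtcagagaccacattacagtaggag
Lysmd4, chr7:67199568-67199627, match on the reverse strand: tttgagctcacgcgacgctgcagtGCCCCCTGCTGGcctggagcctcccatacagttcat
Isg20, chr7:78924449-78924508, match on the forward strand: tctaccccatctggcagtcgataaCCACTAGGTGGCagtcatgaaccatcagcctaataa
The boundary strength, a score of the authors, was 2.40 at Fadd, which encodes an adaptor of death receptors, 2.24 near the zinc finger gene Zfp536, 2.19 near Fam169b and 2.01 near the zinc finger gene Zkscan2. It was 1.71 both at Slc17a6, the gene of the vesicular glutamate transporter VGLUT2, and at Slc22a18, an imprinted transporter gene. It was 1.66 near Lysmd4 and 1.22 near Isg20, an interferon-induced exonuclease gene. The bin near Zkscan2 held 2 matches, the left one on the reverse strand and the right one on the forward strand, so that they pointed away from each other.
The same consensus also occurred in weak boundaries. The bin with a strength of 0.272 near Ssc5d, the bin of 0.256 that holds the start of the odorant receptor gene Olfr554 and the bin of 0.226 that holds the start of Ddias are shown in the same way.
Ssc5d, chr7:4943325-4943384, match on the forward strand: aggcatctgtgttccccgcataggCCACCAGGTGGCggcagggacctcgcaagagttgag
Olfr554, chr7:102636886-102636945, match on the reverse strand: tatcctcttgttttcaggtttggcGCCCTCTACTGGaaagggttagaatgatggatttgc
Ddias, chr7:92870320-92870379, match on the reverse strand: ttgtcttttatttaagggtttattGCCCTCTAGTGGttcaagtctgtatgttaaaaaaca
A match is a stretch of letters and not a measurement of binding.

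Of the 418 boundaries 236 belonged to the authors' strong class and 182 to the weak class. The strong share was 56.5% (exact 95% binomial interval 51.6 to 61.3%), against 52.9% over the whole list. Strength had a median of 0.578 and ran from 0.200 to 2.99, with a median of 0.891 in the strong class and 0.310 in the weak class. The classes met between 0.494 near Pgpep1l, the highest weak value of the chromosome, and 0.508 near Klhl25, the lowest strong one. On chromosome 7, 99 boundaries scored 1 or more, 20 scored 2 or more and 52 scored under 0.25. All intervals in this text cover counting error only, and boundaries that neighbour each other are not independent.

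The strongest boundary of the chromosome (strength 2.99, chr7:73650001-73655000) was intergenic, 85.3 kb from the start of Fam174b, and it closed the interval that holds the start of Chd2, a chromatin remodeller gene. The next (2.81, chr7:118100001-118105000) overlapped an exon of Rps15a, a ribosomal protein gene. The third (2.65) lay 12.4 kb from the start of Selenow, which encodes a small selenoprotein, and the fourth (2.64, chr7:92085001-92090000) overlapped an exon of Dlg2, a postsynaptic scaffold gene, with the nearest coding start site 471 kb away at Ccdc90b. The fifth (2.62, chr7:102485001-102490000) held the start site of the odorant receptor gene Olfr544. The others of the 10 strongest had their nearest start sites at Sec23ip (2.59), Zdhhc13 (2.55), Edrf1 (2.45), Fadd (2.40) and Rbbp6 (2.30). These genes serve vesicle traffic, palmitoylation, erythroid differentiation, cell death and ubiquitination, and no family is shared among them. Among the 10, the bins at Olfr544, Edrf1 and Fadd held a coding start site, and those near Selenow, Zdhhc13 and Fadd had a CTCF consensus within 10 kb. The 5 weakest had their nearest start sites at Gm10295 (0.200), Olfr506 (0.201), the secretoglobin gene Scgb2b26 (0.201), Rnf169 (0.203) and Cttn (0.204).

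Chromosome 7 was singled out because it combined many genes with an ordinary number of boundaries, so the following values describe the choice and support nothing. It carried 2023 protein-coding genes of GENCODE M21, 14.3 per Mb of sequence without gaps, the highest of 20 chromosomes. Olfr (244), Vmn1r (103) and Vmn2r (51) genes made up 19.7% of them, also the highest share. Receptor genes were counted by these symbols throughout, so any under other symbols, such as V1rd19, are missed and the counts are lower bounds. Without these receptor genes chromosome 7 had 11.5 genes per Mb and came second to chromosome 11 (13.1). It held 2.95 boundaries per Mb (exact 95% Poisson interval 2.67 to 3.24), rank 13 of 20, between 3.55 on chromosome 11 and 2.54 on chromosome 14. That gave 4.84 coding genes per boundary, against 2.74 over the other chromosomes together, and 3.89 genes per boundary without receptor genes, both the highest of 20. In the plot of gene and boundary density by chromosome, removal of the receptor genes moves chromosome 7 to the left, to second place in gene density.

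**Figure D1:**
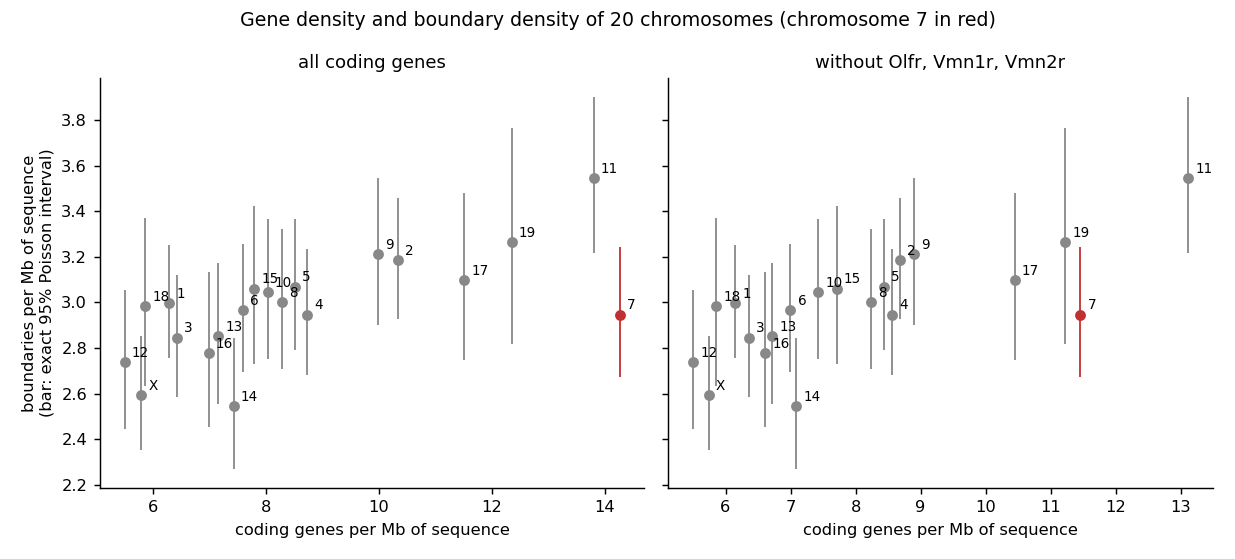
Boundaries per Mb (vertical, bars: exact 95% Poisson intervals) against protein-coding genes per Mb (horizontal) for 20 chromosomes, with all coding genes on the left and without Olfr, Vmn1r and Vmn2r genes on the right. Chromosome 7 (red) has 14.3 and 11.5 genes per Mb, and 2.95 boundaries per Mb.

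Along the chromosome, boundary density was lower where more of the sequence was repeated. As a measure of repeated sequence, each 50-base word was classed by whether it occurs once on its own chromosome on either strand. Such unique words made up 86.0% of chromosome 7, rank 19 of 20 above chromosome X (79.1%), against a median of 92.0% and 94.9% on chromosome 11. The 71 windows of 2 Mb used for chromosome 7, from 4 Mb on, hold 417 of its boundaries. Of these windows 11 had under 80% unique words and held 26 boundaries, 1.20 per Mb (95% interval 0.784 to 1.76). The other 60 windows held 391, or 3.28 per Mb (2.96 to 3.62), and windows of the same kind on the other chromosomes held 3.04 (2.97 to 3.11). The 3.28 ranked second of 20 chromosomes after chromosome 11 (3.53), by a small margin. Chromosomes 19 (3.26), 9 (3.24) and 2 (3.23) followed within its interval, and the cut at 80% was chosen after the data were seen. Short reads from repeated sequence cannot be placed uniquely. The unique share is given for the windows and long intervals below, and its part in their counts was not tested.

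In segments of 20 Mb from the centromere end, boundary density was 2.19, 2.12, 2.86, 3.15, 3.20, 3.36 and 3.30 per Mb, and 4.15 over the last 5.30 Mb. These segments held 20.2, 21.1, 12.3, 4.00, 8.10, 19.5, 11.8 and 28.7 coding start sites per Mb. Unique words made up 66.5%, 67.8%, 87.7%, 93.1%, 93.3%, 91.7%, 96.1% and 95.2% of them. The first 40 Mb therefore joined many genes with the lowest densities, 2.19 (exact 95% Poisson interval 1.54 to 3.02) and 2.12 (1.53 to 2.87). The stretch from 60 to 80 Mb joined the fewest genes per Mb with 3.15 boundaries per Mb (2.42 to 4.03). The distal end had the highest value of both, at 4.15 boundaries per Mb (2.60 to 6.28) from 22 boundaries. Of these intervals only that of 2.12 leaves out the 2.95 of the whole chromosome.

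**Figure D2:**
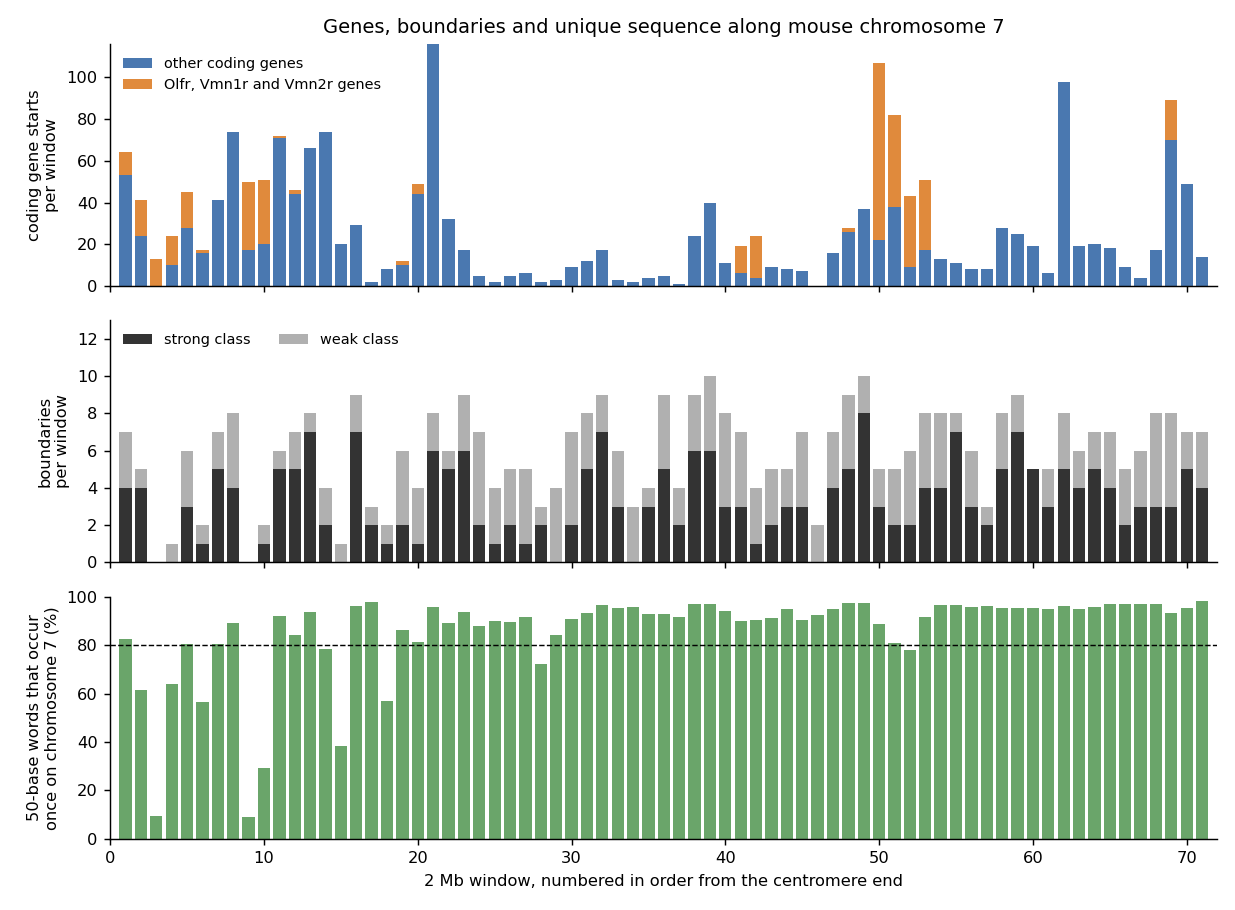
Coding start sites (top, receptor genes in orange), boundaries (middle, strong class dark and weak class grey) and the percent of 50-base words that occur once on the chromosome (bottom, dashed line at 80%) in 71 windows of 2 Mb, numbered from the centromere end. The 2 windows with 0 boundaries stand above the lowest bars of unique sequence, and the tallest gene columns do not carry the tallest boundary columns.

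A window was called gene-rich at 40 or more coding start sites, the 90th percentile over the windows of all chromosomes. Chromosome 7 had 21 gene-rich windows, 11 of them in its first 40 Mb. They held 129 boundaries, 3.08 per Mb (95% interval 2.57 to 3.66), against 2.91 (2.58 to 3.26) in its other 50 windows. The 113 gene-rich windows of the other chromosomes held 4.05 per Mb (3.79 to 4.32), and their remaining windows 2.87 (2.80 to 2.94). In gene-rich windows chromosome 7 ranked 18 of 20, a loose rank because some chromosomes had few such windows. Chromosomes 12 and 18 had 1 each, and the interval of chromosome 12 ran from 2.06 to 8.54. Since the chromosome was chosen for many genes beside an average boundary density, this contrast largely restates the choice and is given as a description. Of its gene-rich windows 1 of 21 (4.76%, exact 95% interval 0.120 to 23.8%) held 9 or more boundaries, against 50 of 113 (44.2%, 34.9 to 53.9%) elsewhere. The cut at 9, here and below, was not among the planned settings, and the contrast depends on it. At a cut of 7, 11 of the 21 windows passed, and the count elsewhere was not computed. The median count of boundaries in these windows was 7 on chromosome 7 and 8 elsewhere, and that of start sites 51 and 52.

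The gap to the other chromosomes was then read for windows split by receptor genes and by repeated sequence. The 6 gene-rich windows in which most genes were receptors held 2.19 boundaries per Mb (1.43 to 3.20), against 2.78 (2.06 to 3.66) in 9 such windows elsewhere. The other 15 held 3.44 (2.81 to 4.17), against 4.16 (3.88 to 4.44) in 104 windows elsewhere, and their intervals overlap. Gene-rich windows with at least 80% unique words held 3.51 per Mb (2.89 to 4.22; 16 windows), against 4.20 (3.93 to 4.49; 104 windows), and 1 of these 16 windows (6.25%) held 9 or more boundaries, against 50 of 104 (48.1%). Without the start sites of 21 tandem or ribosomal gene families, 11 windows of chromosome 7 passed the new threshold of 35. They held 3.83 per Mb (3.05 to 4.74), against 4.15 (3.90 to 4.41) in 122 windows elsewhere, which is within the interval. These families were listed from chromosome 7, so their removal takes gene-rich windows mainly from it. The smaller gap therefore restates the list in part.

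The gene-rich windows differed widely from each other. The window of 20 to 22 Mb, from Vmn1r91 to Vmn1r137, held 50 coding start sites, 33 of them with Vmn1r symbols, and 0 boundaries, and its unique words made up 8.93%. The next window, from Vmn1r138 to Vmn1r181, held 51 start sites and 2 boundaries, at 29.2% unique words. The 4 windows from 102 to 110 Mb carried most odorant receptor genes of the chromosome. They held 107, 82, 43 and 51 start sites, of which 85, 44, 34 and 34 were receptors, and 5, 5, 6 and 8 boundaries. The counts of 5 were under the chromosome's median of 6. Unique words made up 88.6%, 80.8%, 78.2% and 91.5% of these windows, all under the median of 92.7% over the chromosome's windows. Words shared only with other chromosomes count as unique here, and the part of repeated sequence in these counts was not tested.

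Among gene-rich windows where receptors were not the majority, the fewest boundaries were 4. They were found in the window of 30 to 32 Mb, with 74 start sites from Zfp14 to the secretoglobin gene Scgb1b7 and 78.3% unique words, and in the window of 42 to 44 Mb, with 49 start sites from Vmn2r59 to the kallikrein gene Klk1b11 and 81.1% unique words. The windows of 6 to 8 Mb (41 start sites, Vmn1r65 to Vmn2r36), 12 to 14 Mb (45, Vmn1r77 to the sulfotransferase gene Sult2a4) and 24 to 26 Mb (72, V1rd19 to the cytochrome gene Cyp2b10) held 5, 6 and 6, at 61.6%, 80.5% and 91.9% unique words. Those of 4 to 6 Mb (64, Lair1 to Vmn1r64), 16 to 18 Mb (41, Bicra to Ceacam11), 26 to 28 Mb (46, Cyp2b13 to Zfp780b) and 142 to 144 Mb (49, Mob2 to Gm498) held 7 each, at 82.5%, 80.6%, 84.4% and 95.3%. Those of 18 to 20 Mb (74, Ceacam13 to Nlrp9b), 28 to 30 Mb (66, Zfp850 to Zfp568), 126 to 128 Mb (98, Gsg1l to Pycard) and 140 to 142 Mb (89, Zfp511 to Brsk2) held 8 each, at 89.4%, 93.6%, 96.4% and 93.2%.

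The window with most genes of the chromosome, 44 to 46 Mb from Klk1b26 to Ccdc114, held 116 coding start sites, none of a receptor, and 8 boundaries at 95.7% unique words. Its boundaries were all moderate, from 0.317 to 0.920, and their nearest start sites, which are named here after their values were seen, were Klk1, Syt3, Emc10, Myh14, Akt1s1, Dkkl1, Gys1 and Dbp in order along the chromosome. None of the 8 had a CTCF consensus within 10 kb, and the bins near Emc10, Dkkl1, Gys1 and Dbp held a coding start site. Over all gene-rich windows of the chromosome 27.1% of boundaries and 15.5% of bins had such a consensus. The shares of this window's own bins were not computed, so neither count is read as a trait of its boundaries. Syt3 encodes a synaptotagmin, Myh14 a non-muscle myosin, Akt1s1 a target of mTOR signalling, Gys1 the muscle glycogen synthase and Dbp a clock-controlled transcription factor.

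The 9 windows with 9 or more boundaries held 5 to 40 start sites (median 25), 2 receptor genes in all and at least 92.7% unique words. The 2 windows with 10 boundaries were that of 80 to 82 Mb, with 40 start sites from Zfp710 to Bnc1, and that of 100 to 102 Mb, with 37 from Chrdl2 to Numa1, so both lay at the edge of the gene-rich class. Boundaries of the first included those nearest to Idh2, Fes, Blm, Crtc3, Zscan2, Slc28a1, Whamm, 3110040N11Rik and Hdgfl3, and Fes, a tyrosine kinase gene, had the strongest (1.31). In the second, 8 of 10 were strong, and the strongest (1.49) lay 18.6 kb from the start of Clpb, a mitochondrial chaperone gene. The windows with 9 boundaries included that of 34 to 36 Mb (Scgb2b27 to Zfp507, 29 start sites), that of 48 to 50 Mb (Mrgprx1 to Nell1, 17) and that of 66 to 68 Mb (Gm45213 to Igf1r, 17). The window of 74 to 76 Mb, with 5 start sites from St8sia2 to Klhl25, also held 9. The window of 34 to 36 Mb stands next to the secretoglobin window of 32 to 34 Mb, which held 20 start sites from Scgb1b10 to Scgb2b26, 1 boundary (strength 0.201) and 38.2% unique words.

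**Figure D3:**
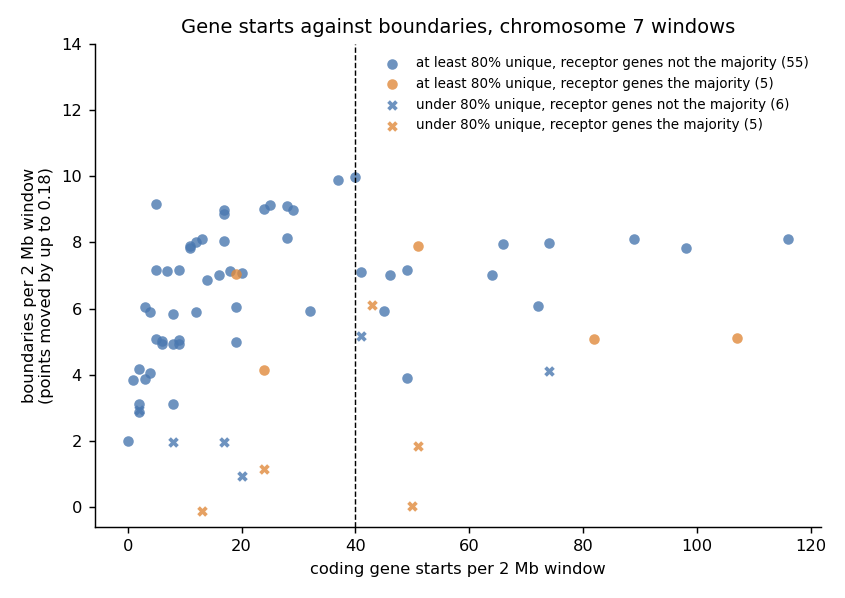
Boundaries (vertical) against coding start sites (horizontal) in 71 windows of 2 Mb, with windows under 80% unique words as crosses, windows where receptor genes are the majority in orange, and the gene-rich threshold of 40 as a dashed line. The 2 windows with 10 boundaries have 37 and 40 start sites, and to the right of the line no window exceeds 8.

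Over the 71 windows, Spearman's rho between start sites and boundaries was 0.303. Over the 1212 windows of the other chromosomes it was 0.642, and among 20 chromosomes only chromosome X was lower (0.136). The rank depends on the setting. With strong boundaries only, rho was 0.378 on chromosome 7, the lowest of 20, and 0.680 elsewhere. Without receptor genes rho was 0.466 on chromosome 7 (rank 4 of 20 from the lowest) and 0.659 elsewhere. Without the 21 families it was 0.550 (also rank 4) and 0.662. The families were listed from chromosome 7, so this rise restates the list in part. In the 60 windows with at least 80% unique words rho was 0.466, against 0.704 in 1153 such windows elsewhere. GC content of the windows went with boundaries about as closely on chromosome 7 (rho 0.592) as elsewhere (0.632), while GC went with start sites less closely (0.430 against 0.733). Neighbouring windows share sequence context and are not replicates, so these are descriptions without a test.

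The distance from one boundary of chromosome 7 to the next had a median of 250 kb and quartiles of 180 and 370 kb, and the median over the 20 chromosomes' own medians was 262 kb. The shortest interval was 85 kb and the longest 3735 kb, and 23 of 417 intervals (5.52%) reached 800 kb. Of the 417 intervals, 69 held no coding start site (16.5%, against 24.1% elsewhere) and 16 held 20 or more (3.84%, against 0.781% elsewhere). Genes per interval follow from genes per boundary, so these shares too describe the choice of the chromosome. The 16 together held 504 start sites in 17170 kb, and 240 of them were receptor genes.

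The longest interval (chr7:19980001-23720000, 3735 kb) ran from Nlrp9b, an inflammasome gene, to Vmn1r173. It held 94 start sites, of which 56 were Vmn1r genes and 35 had provisional Gm symbols, and 15.02% of its words were unique. The second (chr7:6945001-10465000, 3515 kb) ran from Aurkc, a kinase gene of meiosis, to Vmn1r67, with 34 start sites, 24 of them Vmn2r genes, at 26.2% unique words. The third (chr7:31235001-33855000, 2615 kb) held 25 secretoglobin genes from Scgb2b2 to Scgb1b24 and no other coding start site, at 39.98% unique words. Intervals of 1555 kb (Zik1 to Vmn1r76), 1510 kb (Sult2a8 to Crxos) and 1340 kb (Gm5591 to Zfp619) had 59.8%, 47.1% and 35.96%. The other 4 of the 10 longest had at least 89.7% unique words. One was the 1475 kb interval of Xylt1, which encodes a xylosyltransferase of proteoglycan synthesis and has the only coding start site in it, and it ended at the boundary of 2.81 at Rps15a. Another was the 1220 kb interval from Gabrg3 to Gabra5, which encode GABA receptor subunits. The other two, of 1130 kb and 1055 kb (chr7:61040001-62175000 and chr7:95085001-96145000), held no coding start site. The 3 longest intervals took up 6.88% of the chromosome and 7.56% of its start sites, and without them the density was 3.16 per Mb.

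**Figure D4:**
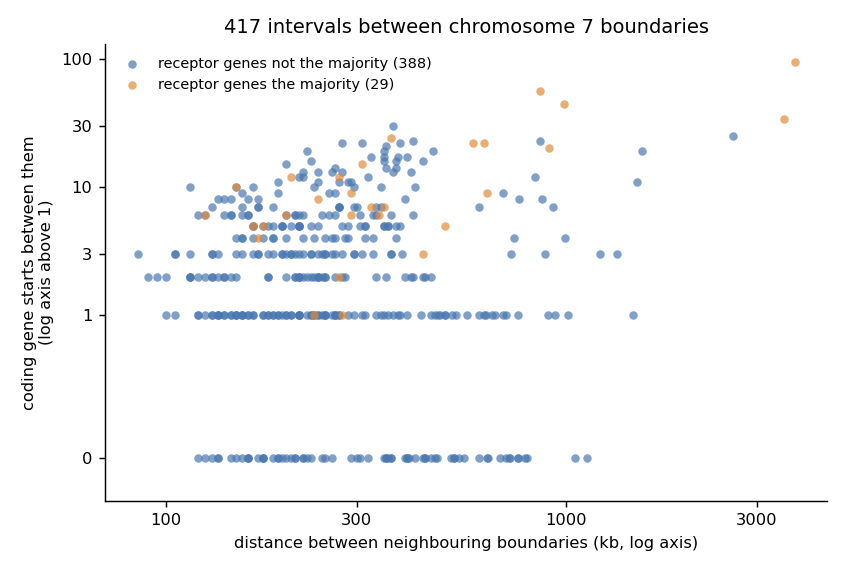
Coding start sites in each of 417 intervals (vertical) against the distance between the 2 boundaries that enclose it (horizontal, log axis), with intervals in which receptor genes are the majority in orange. The 3 longest intervals stand at the right with 94, 34 and 25 start sites, and intervals of 275 to 415 kb without receptor genes reach 22 to 30.

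Several intervals far shorter than the longest ones, though above the median of 250 kb, also held 20 or more genes. The interval from Akt1s1 to Dkkl1 (chr7:44840001-45215000) packed 30 start sites into 370 kb, at 97.9% unique words, between boundaries of 0.563 and 0.814, and it holds Slc17a7, the gene of the vesicular glutamate transporter VGLUT1. The intervals from Gys1 to Dbp (275 kb), Clip3 to Kmt2b (310 kb) and Foxa3 to Ercc2 (385 kb) held 22 start sites each, and that from Tbc1d10b to Rnf40 (415 kb) held 23, 7 of them Zfp genes. The interval from Nlrp12 to Lair1 (860 kb) held 23, among them the calcium channel subunit genes Cacng7 and Cacng8. All of these but the last had at least 95.4% unique words, and the last had 75.04%. Among odorant receptor intervals, that from Olfr596 to Ubqln5 (860 kb) held 48 Olfr genes and the 5 beta-globin genes, that from Olfr643 to Olfr681 (990 kb) 28 Olfr and 10 Trim genes, that from Olfr554 to Olfr578 (365 kb) 23 Olfr genes, that from Olfr478 to Olfr504 (585 kb) 22 and that from Olfr523 to Syce1 (625 kb) 18. Their unique words ranged from 82.6% to 91.0%. The 5 shortest intervals held 1 to 3 start sites each. They were those of Neu3, a sialidase gene, to Spcs2 (85 kb), Ddias to Prcp (90 kb), Copb1, a coatomer gene, to Psma1, a proteasome gene (95 kb), Tlnrd1 to Mesd (100 kb) and Wdr11 alone (100 kb).

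Receptor genes of chromosome 7 formed 25 clusters, taken as at least 3 genes of 1 family at most 200 kb apart, with 389 genes in 14.5 Mb. They held 26 boundaries, 1.79 per Mb (1.17 to 2.63), and 13 clusters had none. Of the 26, 6 were strong (23.1%, exact 95% interval 8.97 to 43.6%), against 230 of 392 outside (58.7%, 53.6 to 63.6%), and the median strength was 0.341 inside and 0.602 outside. A CTCF consensus lay within 10 kb of 3 of the 26 and of 114 of the 392 (29.1%). Of all bins of the chromosome 12.4% had one, and 8.51% of bins in windows under 80% unique words. The share of bins inside the clusters was not computed, so the 3 are not read as a lack. The 8 Olfr clusters held 13 boundaries, the 9 Vmn1r clusters 7 and the 8 Vmn2r clusters 6, all 6 weak. The cluster with most genes, from Olfr543 to Olfr649 (chr7:102476579-104195985, 95 Olfr and 14 other coding genes), held 5 boundaries with strengths of 2.62, 0.256, 0.371, 0.802 and 0.402. The first of these, at Olfr544, was the only one above 1 and lay nearest to the cluster's first gene. The cluster from Olfr651 to Olfr692 held 2, of 0.446 and 0.315. The distal cluster from Olfr522 to Olfr541 had 1 (0.446) for 19 genes. From Vmn1r91 to Vmn1r166, 4 Vmn1r clusters in a row with 49 genes had 0 boundaries, as had 4 Vmn2r clusters from Vmn2r29 to Vmn2r52 with 24 genes. These 8 clusters lie in the 2 longest intervals, at 15.02% and 26.2% unique words, and the part of repeated sequence in the cluster counts was not tested.

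A gene counted as at a boundary when no more than 10 kb separated its start site from the 5 kb bin. Of 2023 coding start sites of chromosome 7, 227 counted so (11.2%), and 206 of 1625 outside the receptor families (12.7%). Among receptors these were 15 of 244 Olfr, 3 of 103 Vmn1r and 3 of 51 Vmn2r genes. Olfr543 and Olfr544 shared the boundary of 2.62, and Vmn1r178 was at one of 2.13, while Vmn1r135 was 1847 kb and Vmn2r45 1539 kb from the nearest. Of 92 Zfp genes 6 were at a boundary (6.52%), with Zfp94 (0.669) and Zfp607b (0.662) at the strongest. No secretoglobin gene of 30 was (upper bound of the exact interval 11.6%), and Scgb1b29 lay 1202 kb away. Of 26 kallikrein genes 4 were, with Klk1b5 and Klk1 at a boundary of 0.750. Of 14 ribosomal protein genes 4 were (28.6%, 8.39 to 58.1%), with Rps3 at 1.68, while Rps9 was 366 kb away. Psg16, a pregnancy-specific glycoprotein gene, was at a boundary of 2.29 and the mitochondrial ribosomal gene Mrps12 at one of 1.56. The muscle repair gene Trim72 (1.49) was the only 1 of 16 Trim genes at a boundary. None of the Hbb (5), Saa (4), Fxyd (4), Krtap5 (5), Ifitm (6), Siglec (6) or Lilr and Pir (4) genes was.

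The genes of the olfactory list were read for their place only. Of 13, 1 was at a boundary, namely Slc17a6, 7.01 kb from the boundary of 1.71 whose CTCF match is shown above. Ebf3, a transcription factor gene of the Ebf family, started 10.6 kb from a boundary of 1.89. Omp itself, whose promoter drives the Cre, stood 49.5 kb from a weak boundary of 0.446, in a 220 kb interval with Myo7a and Capn5 between 2 weak boundaries. The channel gene Cnga4 was 39.6 kb from a boundary of 0.315 at the end of the Olfr651 to Olfr692 cluster. Kirrel2, an adhesion gene of olfactory axons, lay 132 kb away in the interval from Clip3 to Kmt2b. Slc17a7 (46.1 kb), Gng8, a G protein gene of immature neurons (28.2 kb), and the transcription factor gene Atf5 (23.3 kb) were nearest to strong boundaries of 0.814, 0.565 and 0.563. Lmo1, which encodes a LIM-only factor, was 95.2 kb from one of 1.14. The supporting cell genes Cyp2g1 and Cyp2a5 shared an interval of 415 kb that began at a boundary of 1.97, the vomeronasal channel gene Trpc2 was 167 kb and the proliferation gene Mki67 43.6 kb from the nearest. The share of the list was 7.69% (0.195 to 36.03%), an interval that holds the 11.2% of all coding genes.

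Of 30 neuronal genes listed 29 lie on chromosome 7, and 5 were at a boundary (17.2%, 5.85 to 35.8%). Among these were Nav2 (1.06), the transcription factor genes Mef2a (0.654) and Nr2f2 (0.364), and Igf1r, the gene of the insulin-like growth factor receptor (0.986). The fusion factor gene Napa, 177 kb away, and Cacng8, 176 kb away, were the farthest. Of 26 imprinted genes listed 24 were found, and 5 were at a boundary (20.8%, 7.13 to 42.2%). Cdkn1c, a cell cycle inhibitor gene, and Slc22a18 started on opposite sides of 1 boundary of 1.71, at 3.95 and 3.74 kb, and the reverse-strand CTCF match shown above lies in it. Peg3 and Usp29, which share a promoter region, were at a weak boundary of 0.380, and the insulin gene Ins2 at one of 0.980 that also closes the interval of Igf2. Ndn, Magel2, Mkrn3 and Peg12 shared 1 interval of 330 kb between weak boundaries of 0.268 and 0.267, with Ndn 153 kb from the nearest, and Snurf was 185 kb away, in the 995 kb interval of Ube3a and Snrpn. Both intervals hold the 11.2% of all coding genes. The 3 lists and the families were counted side by side, with no test between them.

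Seen from the boundaries, 166 of 418 (39.7%, 35.0 to 44.6%) had a coding start site within 10 kb, second of 20 chromosomes, against 26.7% of all 5 kb bins of chromosome 7. The ratio of these shares, 1.49, was the lowest of 20 chromosomes (median 1.85). The share of bins rises with gene density, for which the chromosome was chosen, so this rank in part restates the choice. In gene-rich windows 63.6% of boundaries had a start site (54.6 to 71.9%) and 55.7% of bins did, while in the other windows the shares were 29.2% (23.98 to 34.8%) and 14.3%. In the exons of coding genes lay 39.95% of boundaries and 28.7% of bins, in introns 13.2% and 19.5%, and between genes 46.9% and 51.8%. A CTCF consensus was found within 10 kb of 117 boundaries (27.99%, 23.7 to 32.6%), against 12.4% of bins, a ratio of 2.25 at rank 7 of 20. In gene-rich windows it was 27.1% of boundaries and 15.5% of bins, elsewhere 28.1% and 11.1%. Consensus matches up to 50 kb on either side of a boundary pointed away from it in 238 of 358 cases (66.5%, 61.3 to 71.4%), and on the other chromosomes in 66.5% (65.3 to 67.8%).

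Stronger boundaries carried these features more often. In the strong class 45.8% had a start site (39.3 to 52.3%) and 33.9% a CTCF consensus (27.9 to 40.3%) within 10 kb, and in the weak class 31.9% (25.2 to 39.2%) and 20.3% (14.7 to 26.9%). The 53 boundaries with both had a median strength of 0.818, the 64 with a CTCF consensus alone 0.614, the 113 with a start site alone 0.582 and the 188 with neither 0.475. The 188 nevertheless included the strongest of the chromosome near Fam174b, and the lowest value of the 53 was 0.203, at Rnf169. The strengths of the 4 groups overlapped over most of their range.

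**Figure D5:**
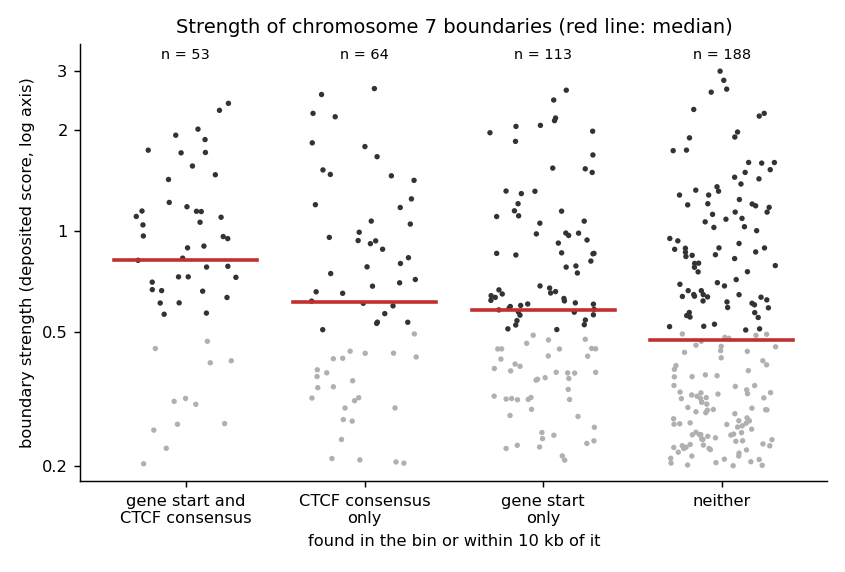
Strength (vertical, log axis) of each of the 418 boundaries of chromosome 7, split by what lies no more than 10 kb from the bin, with strong ones dark, weak ones grey and the median as a red line. Medians run from 0.818 with a gene start and a CTCF consensus to 0.475 with neither, and each group spans from near 0.2 to above 2.

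Promoters whose start lay inside a boundary bin held more CpG than those of the chromosome as a whole, and those within 10 kb differed less. Over the RefSeq promoter windows of chromosome 7, cut to the 250 bases before the start site (2790 windows, some genes having several), the median was 4 CpG and 51.6% GC. In the 76 whose start lay in a boundary bin it was 16 CpG and 60.4% GC, and without receptor genes it was 16.5 CpG in 72, against 6 CpG in all 2417. Of the 76, 51 (67.1%) had at least 10 CpG, against 33.6% over the chromosome. In the 301 windows that start within 10 kb of a boundary the median was 7 CpG and 42.9% had at least 10, and without receptor genes the median was 8 CpG. Receptor promoters had a median of 1 CpG and 35.2% GC. The letters TATAAA, or TTTATA on the other strand, occurred in 6.58% of the 76, in 14.2% of the chromosome's windows and in 39.1% of receptor promoters. CCAAT or ATTGG occurred in 32.9%, 36.6% and 46.4%. The CTCF consensus lay in 5.26% of the 76 windows, in 0.573% of the chromosome's and in 0.508% of the 32851 windows of the genome. That 5.26% rests on few windows, and the 76 are not independent, since a gene such as Gm33663 has overlapping windows in the same bin. The promoters of Wtip, which encodes a LIM domain protein, and of Cuzd1, which encodes a zona pellucida domain protein, are shown as examples of the range. Both started in a strong boundary bin, with strengths of 1.96 and 1.42, and held 30 and 0 CpG. They are given on the strand of the gene from 5′ to 3′ (RefSeq, GRCm38), with each CpG in capitals.
Wtip, chr7:34133269-34133518, reverse strand: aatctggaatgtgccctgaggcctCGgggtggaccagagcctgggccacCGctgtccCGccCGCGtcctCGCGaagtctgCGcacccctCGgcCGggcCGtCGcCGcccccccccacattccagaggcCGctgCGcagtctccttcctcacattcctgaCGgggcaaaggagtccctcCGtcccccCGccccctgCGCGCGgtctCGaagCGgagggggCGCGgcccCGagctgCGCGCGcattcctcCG
Cuzd1, chr7:131322293-131322542, reverse strand: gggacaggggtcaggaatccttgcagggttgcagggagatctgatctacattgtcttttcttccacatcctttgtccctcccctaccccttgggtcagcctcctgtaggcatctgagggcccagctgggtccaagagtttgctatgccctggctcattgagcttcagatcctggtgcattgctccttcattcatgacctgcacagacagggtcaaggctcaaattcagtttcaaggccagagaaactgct
Neither held the TATA letters, the CCAAT letters or the CTCF consensus.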

How the data were processed

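Boundaries were called by the authors on a GRCm38 contact matrix that combines the contact pairs of both replicates, per the labels' design text. The deposited boundary strength is a score of the authors for each 5 kb bin, used to describe, rank or split bins. Every strong entry of the list scores at least 0.500 and every weak one under that. The caller, version, window and mask behind it, and its sequencing depth, were not given in the sources used here.

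Coding genes and start sites came from GENCODE M21, promoters from RefSeq. Densities are per Mb outside assembly gaps, in windows of 2 Mb. A unique word is a 50-base sequence found once on its chromosome. Intervals are exact binomial or Poisson, and scripts were tested on simulated data. Computation ran in Python 3.11.15, with scipy 1.17.1 for statistics, pandas 2.3.3 and numpy 2.4.6 for tables, and matplotlib 3.10.9 for figures.

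The members, gene lists and 21 families were chosen with earlier results of these data known, and the families were listed from chromosome 7. Genes named were those nearest to the 10 strongest and 5 weakest boundaries, the first and last of gene-rich windows, of the windows with most boundaries and of the longest, shortest and most gene-filled intervals, the list members at the strongest boundaries or farthest from any, the whole olfactory list and those at printed sequences. Other genes were named after their values were seen. There was no test between groups. Some genes that the rule names are not reported here.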

Additional observations from a re-analysis of the deposited data

How the results depend on the processing

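Of 21 alternatives, 9 moved a value by less than its counting interval (for spacing and rho, fixed margins of 25 kb and 0.1), 12 moved it more and 0 reversed it. Of 6 more, chosen after seeing the data, 2 and 4 did. Densities, shares and spacings cannot change sign, so only rho could have reversed. With strong boundaries only, density was 1.66 per Mb on chromosome 7 and 1.84 in its gene-rich windows, median spacing was 365 kb, and 45.8% and 33.9% of boundaries had a start site and a CTCF consensus within 10 kb. A score of at least 1 was held by 23.7%. Start sites were found for 11.96% in the bin only and 59.3% within 25 kb, and the CTCF consensus for 7.18% and 42.1%. A looser consensus gave 79.7%, beside 67.9% of all bins. Without receptor genes rho between start sites and boundaries was 0.466. Among the alternatives chosen after seeing the data, windows at least 80% unique gave 3.28 per Mb and a rho of 0.466. Start sites without the 21 families gave 3.83 per Mb in gene-rich windows and a rho of 0.550, values that restate the list in part. In the other 11 cases values stayed close, with gene-rich densities of 3.19 and 3.07 in windows of 1 and 5 Mb, and 3.57 without receptor genes.

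No paired analysis was possible because 1 list was called on the combined contacts of both replicates. For the same reason no replicate was left out and no value has a replicate error, and no depth is known for any boundary. The intervals cover counting error only and treat neighbouring boundaries as independent. An absence of boundaries in a window with little unique sequence cannot be told apart from an absence of measurable contacts. In bins, start sites and CTCF matches are a place and a stretch of letters, not transcription or binding.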

Other observations

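Boundary counts in clusters of tandem families other than the receptors were small. The kallikrein cluster, 26 genes for secreted serine proteases in 0.539 Mb, held 3 boundaries, 5.56 per Mb (exact 95% Poisson interval 1.15 to 16.3). The 4 clusters of carcinoembryonic antigen-like and pregnancy-specific glycoprotein genes (Ceacam and Psg) held 5 boundaries, 4.46 per Mb (1.45 to 10.4). The cytochrome Cyp2 clusters held 3, 2.98 per Mb (0.615 to 8.71), the Mrgpr clusters, of itch and pain receptors, 3, 2.78 per Mb (0.574 to 8.13), and the 10 Zfp clusters 7, 2.72 per Mb (1.10 to 5.61). The 4 secretoglobin clusters held 1, 0.795 per Mb (0.0201 to 4.43). The Siglec, Nlrp, Lilr and Pir, Trim, Hbb, Krtap5, Ifitm, Fxyd and Saa families had 1 cluster each, with 0 boundaries in lengths of 0.0407 to 0.309 Mb. The share of unique sequence in these clusters was not computed. All of the intervals printed are wide and overlap that of the receptor clusters, 1.79 per Mb (1.17 to 2.63), so no difference between families was shown at these counts.

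In the window of 126 to 128 Mb, with 98 coding genes, the 8 boundaries lay nearest to Gsg1l (1.10), Nfatc2ip (0.463), Eif3c (0.318), Mapk3 (0.861), Cdiptos (0.338), Cd2bp2 (1.21), Zfp629 (0.622) and Orai3 (0.543). Mapk3 encodes the kinase ERK1, Eif3c a translation initiation factor and Orai3 a calcium channel. These genes were named after their values were seen.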
